A study of Mus musculus with 5 samples.

Results

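The genes described here carry peptides and lipids to the cell surface on class I molecules of the major histocompatibility complex (MHC). They are 10 genes listed by symbol and matched through their NCBI gene identifiers, of 27179 genes in the table: H2-K1, H2-D1, B2m, Tap1, Tap2, Tapbp, Erap1, Nlrc5, H2-T23 and Cd1d1. All 10 passed the filter on low counts. RNA was sequenced from ILC3, which are group 3 innate lymphoid cells (3 libraries, sorted by CD45+, CD3-, CD127+ and a green fluorescent reporter of RORγt), and from CD4 T cells (2 libraries, sorted by CD45, CD3 and CD4). All mice were wild type C57BL/6, 3 animals in all, and the only comparison is that of ILC3 with CD4 T. The title places the study in the intestine, no sample label names a tissue, and no age, sex or treatment is given. The reporter is not named for the CD4 T sort.

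A class I molecule is a heavy chain paired with beta-2 microglobulin and filled with a short peptide. Peptides cut by the proteasome are pumped into the endoplasmic reticulum by the transporter TAP1/TAP2, tapasin holds the empty heavy chain at the transporter, and the aminopeptidase ERAP1 trims the peptides to length. The loaded molecule is read by CD8 T cells and by receptors of natural killer cells and other innate lymphocytes. NLRC5 is the transactivator of these genes; it acts with the RFX and NF-Y complexes at a composite promoter element that includes an X2 box and a Y box.

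The libraries labelled CD4 T also held transcripts of other cells, and in part go against their label: markers of plasmacytoid dendritic cells, of macrophages and of CD8 T cells were abundant in each, and CD4 T replicate 2 stood apart by Paneth cell transcripts. The ILC3 libraries held plasma cell transcripts too, with Jchain at 17875, 100425 and 82251 CPM, against 34269 and 20826 CPM in CD4 T. The values of all these markers are given with the marker lists, and the values without each library beside the results that rest on it.

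The transporter genes Tap1 and Tap2, the tapasin gene Tapbp and the transactivator gene Nlrc5 were lower in ILC3, on average about 6.11, 4.36, 4.04 and 3.83 times lower in CPM (counts scaled to library size times the TMM factor). With edgeR the heavy chains H2-K1 and H2-D1 and the shared light chain B2m were not called in either direction, and neither was Erap1, which was higher in every ILC3 library. Of the 10 genes, 4 were called lower in ILC3 and 0 higher at an edgeR adjusted p under 0.05, where 7.21% of the 12747 genes tested were called lower and 6.46% higher. At an unadjusted edgeR p under 0.05, 5 were lower and 2 higher, and no count over all genes was made at that threshold. DESeq2 called 4 lower and 2 higher (H2-D1 and Erap1), where it called 1858 of the 12747 genes lower and 1914 higher. With limma-voom 4 were lower and 1 higher (H2-D1), beside 1402 lower and 1317 higher of all genes. The median log2 fold change of the 10 genes was -0.60, beside -0.10 for all genes tested. In bulk libraries, fewer cells that carry a transcript and less of it per cell cannot be told apart.

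Promoters of these genes are shown first because the heavy chains and the light chain share an arrangement of short motifs that the other members with a sequence do not. RefSeq windows on GRCm38.p6 matched 7 of the 10 genes; Tap2, Nlrc5 and Cd1d1 had none. Each line gives the 250 bases before the start site annotated in RefSeq, 5′ to 3′ on the strand of the gene. In GENCODE M21, used for gene positions below, H2-D1 and Tapbp begin before these windows, so motif positions depend on the start site chosen. For Erap1, which is not printed, the bases just after the window were not found in a GENCODE transcript. Capitals mark matches on either strand to CCAAT (the core of the Y box, bound by NF-Y), TGACG (a core of the X2 box), GAAANNGAA (a core of the interferon response element) and GGGNNTTCC (a core of NF-kB sites). The windows are chr17:34000348-34000597 (minus strand) for H2-K1, chr17:35262844-35263093 (plus) for H2-D1, chr2:122147437-122147686 (plus) for B2m, chr17:34187306-34187555 (plus) for Tap1 and chr17:33919228-33919477 (plus) for Tapbp.
H2-K1: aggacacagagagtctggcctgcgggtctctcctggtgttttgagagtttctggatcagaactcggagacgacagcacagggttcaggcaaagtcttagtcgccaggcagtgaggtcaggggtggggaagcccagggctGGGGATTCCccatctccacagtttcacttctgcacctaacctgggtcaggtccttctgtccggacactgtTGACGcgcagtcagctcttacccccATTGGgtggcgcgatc
H2-D1: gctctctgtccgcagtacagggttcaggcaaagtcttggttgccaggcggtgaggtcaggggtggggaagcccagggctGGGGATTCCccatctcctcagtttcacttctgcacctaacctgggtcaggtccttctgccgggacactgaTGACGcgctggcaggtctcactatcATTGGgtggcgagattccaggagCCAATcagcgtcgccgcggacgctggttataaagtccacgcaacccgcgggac
B2m: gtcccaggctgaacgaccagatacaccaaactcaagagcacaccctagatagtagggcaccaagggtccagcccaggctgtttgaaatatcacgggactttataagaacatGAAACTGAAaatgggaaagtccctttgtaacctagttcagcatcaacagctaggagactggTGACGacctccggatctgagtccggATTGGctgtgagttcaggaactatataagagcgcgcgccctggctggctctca
Tap1: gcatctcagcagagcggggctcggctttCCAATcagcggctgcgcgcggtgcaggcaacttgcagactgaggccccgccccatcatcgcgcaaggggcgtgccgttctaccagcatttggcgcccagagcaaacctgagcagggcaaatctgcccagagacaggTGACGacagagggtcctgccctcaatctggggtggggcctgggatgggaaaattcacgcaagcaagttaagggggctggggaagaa
Tapbp: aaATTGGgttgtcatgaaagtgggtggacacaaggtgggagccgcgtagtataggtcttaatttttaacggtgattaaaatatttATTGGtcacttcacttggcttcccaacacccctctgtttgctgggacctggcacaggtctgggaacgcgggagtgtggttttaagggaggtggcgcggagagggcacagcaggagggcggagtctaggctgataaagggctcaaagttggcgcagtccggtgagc

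Counting back from -1 at the base before the start site, TGACG began at -41 in H2-K1, -101 in H2-D1 and -78 in B2m, and in each of them ATTGG, which is CCAAT on the other strand, followed after a gap of exactly 20 bases. This spaced pair, noticed in these promoters and then searched for, was present on either strand in 25 of 27025 promoters of the same length (0.0925%), and in 3 of the 7 members with a sequence. H2-M3, one of the other class I chains read for context below, was also among the 25. Tap1 held TGACG at -86 and CCAAT at -222, without that spacing, and Tapbp held CCAAT in reverse at -248 and -165 and no TGACG. GGGNNTTCC began at -111 in H2-K1 and -171 in H2-D1, and among these members in no other. GAAANNGAA was present in B2m at -139, and in H2-T23 and Erap1, whose promoters are not printed. Only this order of the interferon core was searched for. The windows of H2-K1 and H2-D1 both hold tttcacttc, which on the other strand has the same parts in the opposite order. The lack of a GAAANNGAA match therefore does not show that these 2 promoters lack an interferon response element. Alone, these motifs were common: CCAAT was found in 34.5% of all promoters, TGACG in 17.9%, GAAANNGAA in 7.16% and GGGNNTTCC in 4.88%. No motif matches overlapped each other. Matches of letters describe these windows only.

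B2m was by far the most abundant member. Beta-2 microglobulin (B2m, NCBI gene 12010, chromosome 2, 122147686 to 122153083, plus strand; positions here and below from GENCODE M21 on GRCm38) was 14379, 18466 and 16315 CPM in the ILC3 libraries, against 8504 and 12742 CPM in the CD4 T libraries. All 3 ILC3 libraries lay above both CD4 T libraries. The log2 fold change of 0.63 had a 95% interval of -0.19 to 1.44 and was not called (edgeR adjusted p = 0.253). Without CD4 T replicate 2 it was 0.96 and passed (edgeR adjusted p = 0.0266).

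The classical heavy chains differed from each other in pattern. H2-K1 (gene 14972, chromosome 17, 33996017 to 34000347, minus strand) was 1857, 1800 and 1559 CPM in ILC3, against 2016 and 2120 CPM in CD4 T. The level of H2-K1 was lower in every ILC3 library than in either CD4 T library, by a small margin (log2 -0.25, 95% interval -0.92 to 0.41, edgeR adjusted p = 0.582). H2-D1 (gene 14964, chromosome 17, 35262730 to 35267499, plus strand) was 1016, 799.9 and 627 CPM in ILC3, against 169.96 and 491 CPM in CD4 T. Its libraries did not overlap between the groups either, with ILC3 higher, but the CD4 T libraries stood far apart from each other (log2 1.30, 95% interval 0.08 to 2.52, edgeR adjusted p = 0.131). The size of the H2-D1 difference followed the CD4 T library used: with edgeR it was 2.27 when CD4 T replicate 2 was left out, and called (adjusted p = 0.0173), and 0.73 when CD4 T replicate 1 was. DESeq2 and limma-voom called H2-D1 with all 5 libraries (adjusted p = 0.0311 with DESeq2 and 0.0456 with limma-voom).

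Reads of the heavy chain genes can be shared with their relatives. Of all 50-base words in the GENCODE transcripts of H2-K1, 9.63% also occurred in transcripts of another gene, with 12.8% for H2-D1, 14.5% for H2-T23 and 19.1% for Cd1d1, the last all shared with Cd1d2. For B2m the share was 0. The handling of reads with several matches is not given in the sources used, so the split between H2-K1, H2-D1 and the H2-Q genes is uncertain.

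**Figure D1:**
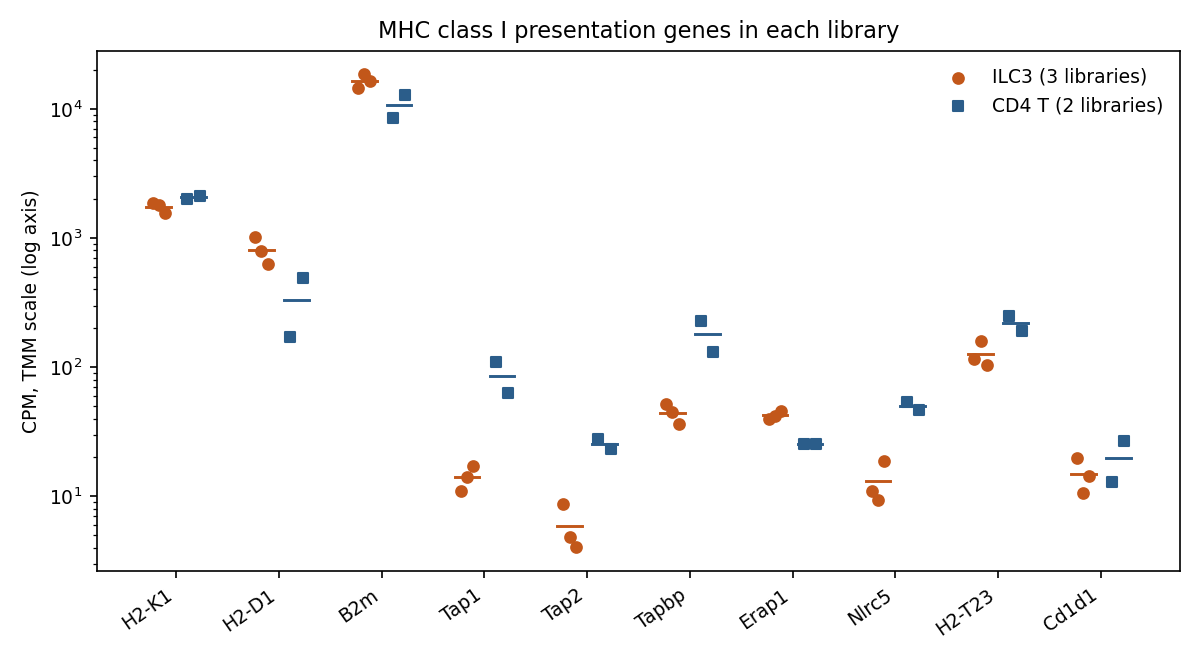
CPM on the TMM scale (log axis) of the 10 class I genes in each library, with circles for the 3 ILC3 libraries, squares for the 2 CD4 T libraries and horizontal bars at the group means. Tap1, Tap2, Tapbp and Nlrc5 lay lower in every ILC3 library, as did H2-K1 and H2-T23, which edgeR with TMM factors did not call. B2m peaked at 18466 CPM (ILC3) and 12742 CPM (CD4 T).

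Transcripts of the transporter genes Tap1 and Tap2 were lower in ILC3. Tap1 (gene 21354, chromosome 17, 34187553 to 34197225, plus strand) was 11.1, 14.0 and 17.2 CPM in ILC3, against 109 and 63.0 CPM in CD4 T. The highest ILC3 library was well under the lowest CD4 T library. The log2 fold change was -2.61 (SE 0.37, 95% interval -3.50 to -1.73, edgeR adjusted p = 0.0101). Tap1 stayed called in each of the 14 alternatives, with log2 values from -3.14 to -2.16 and adjusted p from 4.64e-08 to 0.047.

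Tap2 (gene 21355, chromosome 17, 34203527 to 34216321, plus strand) was 8.70, 4.87 and 4.03 CPM in ILC3, against 27.9 and 23.2 CPM in CD4 T. The groups did not overlap here either (edgeR log2 -2.12, SE 0.51, adjusted p = 0.0414). The call for Tap2 was lost when any 1 library was left out: edgeR adjusted p = 0.0626 without ILC3 replicate 1, 0.109 without ILC3 replicate 2, 0.0908 without ILC3 replicate 3, 0.146 without CD4 T replicate 1 and 0.0626 without CD4 T replicate 2, with log2 values from -2.53 to -1.91.

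Tapbp, which encodes tapasin (gene 21356, chromosome 17, 33915899 to 33929292, plus strand), was 52.03, 45.3 and 36.3 CPM in ILC3, against 228 and 132 CPM in CD4 T. Every ILC3 library was lower than every CD4 T library (edgeR log2 -2.01, SE 0.34, 95% interval -2.82 to -1.20, adjusted p = 0.0155). Leaving out any ILC3 library took Tapbp past the threshold: the edgeR adjusted p was 0.0514, 0.0631 and 0.0575 without ILC3 replicates 1, 2 and 3.

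Erap1, the trimming peptidase (gene 80898, chromosome 13, 74639568 to 74693201, plus strand), went the other way without passing the test. It was 39.9, 41.96 and 45.7 CPM in ILC3, against 25.4 and 25.6 CPM in CD4 T. The libraries of each group lay close together and the groups did not overlap (log2 0.74, 95% interval 0.05 to 1.43, edgeR adjusted p = 0.13). DESeq2 called it (adjusted p = 0.0485).

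Nlrc5 (gene 434341, chromosome 8, 94434356 to 94527272, plus strand), the transactivator, was 11.1, 9.42 and 18.7 CPM in ILC3, against 53.6 and 46.6 CPM in CD4 T. It was lower in every ILC3 library (edgeR log2 -1.94, SE 0.40, 95% interval -2.89 to -0.99, adjusted p = 0.0272). With edgeR the adjusted p of Nlrc5 was 0.0877 when ILC3 replicate 1 was left out, 0.089 for ILC3 replicate 2 and 0.101 for CD4 T replicate 1, so these ended the call.

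With edgeR and TMM factors the non-classical members were not called. H2-T23, which encodes the heavy chain of Qa-1, a ligand of the NKG2A receptor (gene 15040, chromosome 17, 36029773 to 36032855, minus strand), was 116, 159 and 104 CPM in ILC3, against 247 and 191 CPM in CD4 T. The groups did not overlap, with ILC3 lower (log2 -0.80, 95% interval -1.53 to -0.06, edgeR adjusted p = 0.125). With library size alone H2-T23 was called lower (log2 -1.32, edgeR adjusted p = 0.0475). Cd1d1, which presents lipids to natural killer T cells and needs no TAP (gene 12479, chromosome 3, 86995834 to 86999441, minus strand), was 19.8, 10.6 and 14.4 CPM in ILC3, against 12.9 and 26.7 CPM in CD4 T. Cd1d1 was the member whose groups overlapped (log2 -0.41, 95% interval -1.61 to 0.80, edgeR adjusted p = 0.625), and its sign turned to 0.22 without CD4 T replicate 2. The other 9 members had libraries that did not overlap between the groups, as had 55% of all genes tested.

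**Figure D2:**
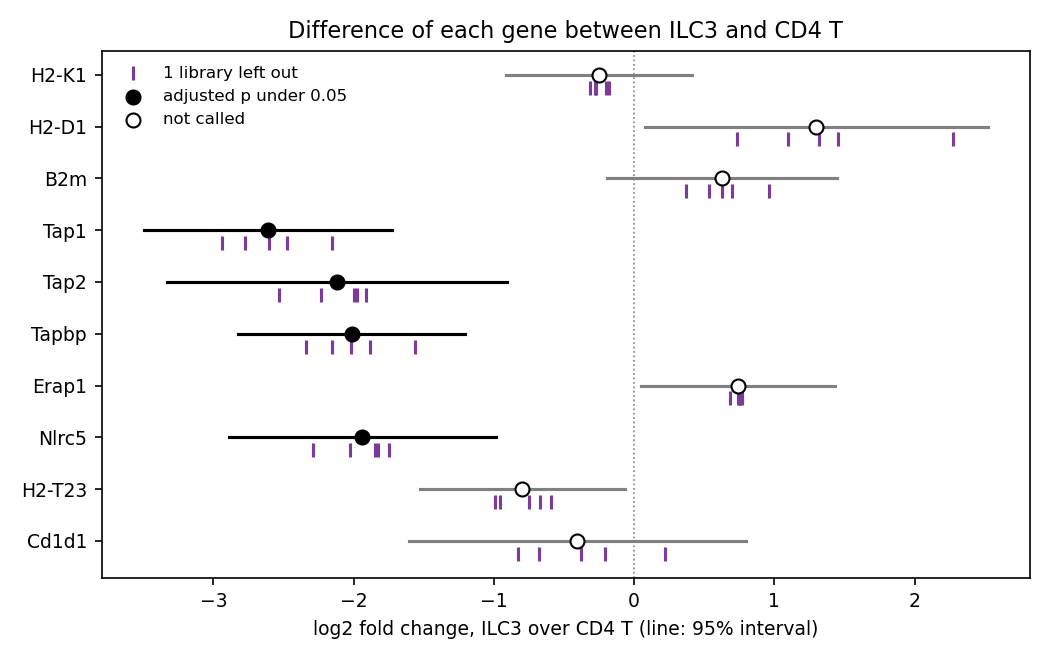
Log2 fold change of ILC3 over CD4 T for each class I gene, with a line for the 95% interval, a filled point where the edgeR adjusted p was under 0.05 and ticks for the values with 1 library left out. The filled points are Tap1, Tap2, Tapbp and Nlrc5, from -2.61 to -1.94, and the ticks of H2-D1 spread from 0.73 to 2.27.

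Some of the members share genomic bases with other genes, and the strand setting of the counting is not given. Exons of Psmb9, on the opposite strand, cover 3.87% of the exon bases of Tap1, and 18.5% of the exon bases of Tap2 are shared with Gm15821 and Gm20496. For Tapbp 29.0% are shared with Gm19412 and Zbtb22, for Erap1 11.5% with Cast and for Nlrc5 0.918% with 9330175E14Rik, while H2-K1, H2-D1, B2m, H2-T23 and Cd1d1 share none. Zbtb22, the neighbour of Tapbp, averaged 3.97 ± 0.666 CPM over 3 ILC3 libraries and 4.32 ± 0.512 CPM over 2 CD4 T libraries (SD). Cast, the neighbour of Erap1, averaged 31.9 ± 3.45 CPM over the ILC3 libraries and 28.2 ± 16.0 CPM over the CD4 T libraries (SD). Neither of these neighbours was called (log2 -0.12 and edgeR adjusted p = 0.932 for Zbtb22, log2 0.18 and edgeR adjusted p = 0.816 for Cast). Psmb9, the neighbour of Tap1, averaged 104 ± 22.9 CPM over the ILC3 libraries and 199.6 ± 50.4 CPM over the CD4 T libraries (SD), lower in ILC3 as Tap1 was, and was called with DESeq2 (adjusted p = 0.0315) but not with edgeR (0.0933). Gm19412, which held 20.3% of the 50-base words of Tapbp, ran the other way, at 1.66, 2.43 and 2.05 CPM in ILC3, against 0 and 0.596 CPM in CD4 T (edgeR adjusted p = 0.351).

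Levels were compared between genes per kb of exon (CPM divided by the summed length of the gene's exons in GENCODE M21). In ILC3 the order was B2m (19054 ± 2377 CPM per kb), H2-K1 (592 ± 53.8), H2-D1 (316 ± 75.7), H2-T23 (43.7 ± 10.1), Tapbp (12.3 ± 2.17), Erap1 (5.84 ± 0.398), Cd1d1 (5.81 ± 1.81), Tap1 (2.57 ± 0.558), Tap2 (1.55 ± 0.657) and Nlrc5 (1.54 ± 0.583). Erap1 and Cd1d1, Tap1 and Tap2, and Tap2 and Nlrc5 overlapped in their ILC3 libraries, and the other neighbours in the order did not. In CD4 T the order was B2m (12353 ± 3485 CPM per kb), H2-K1 (704 ± 25.0), H2-D1 (128 ± 88.1), H2-T23 (75.8 ± 13.7), Tapbp (49.6 ± 18.7), Tap1 (15.7 ± 5.97), Cd1d1 (7.71 ± 3.79), Tap2 (6.76 ± 0.874), Nlrc5 (5.90 ± 0.58) and Erap1 (3.50 ± 0.0147). H2-D1 and H2-T23, Cd1d1 and Tap2, and Tap2 and Nlrc5 overlapped there. Erap1 ranked 6 of 10 in ILC3 and 10 of 10 in CD4 T, and Tap1 8 and 6.

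Ratios of genes within a library do not depend on how the libraries are scaled. For counts per kb, H2-K1 plus H2-D1 stood to Tap1 plus Tap2 as 237, 239.7 and 184 to 1 in the ILC3 libraries, against 27.5 and 51.7 to 1 in the CD4 T libraries. The mean log2 ratio was 7.77 ± 0.22 in ILC3 (SD, n = 3) and 5.24 ± 0.64 in CD4 T (SD, n = 2), a difference of 2.54, and this ratio was chosen after the values were seen. B2m stood to H2-K1 plus H2-D1 as 16.3, 23.3 and 24.5 to 1 in ILC3, against 13.1 and 16.2 to 1 in CD4 T, so the lowest ILC3 library was next to the highest CD4 T library.

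H2-K1 exceeded H2-D1 in every library, by 1.60, 1.98 and 2.18 times in ILC3 and by 10.4 and 3.79 times in CD4 T. The difference in log2 ratio was -1.72, and it was -0.99 without CD4 T replicate 1 and -2.45 without CD4 T replicate 2. H2-T23 stood to H2-K1 plus H2-D1 at a log2 ratio of -4.39 ± 0.31 in ILC3 and -3.46 ± 0.46 in CD4 T. Tapbp stood to Tap1 plus Tap2 at 1.56 ± 0.27 in ILC3 and 1.12 ± 0.11 in CD4 T. The log2 ratio of Tap1 to Tap2 overlapped, at 0.79 ± 0.89 in ILC3 and 1.17 ± 0.37 in CD4 T. In an exact two-sided permutation test, the smallest p that 3 against 2 libraries allow is 0.2. The ratios other than Tap1 to Tap2 reached it (exact p = 0.2, 0.24 adjusted over the 6 ratios), and Tap1 to Tap2 had exact p = 1.

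**Figure D3:**
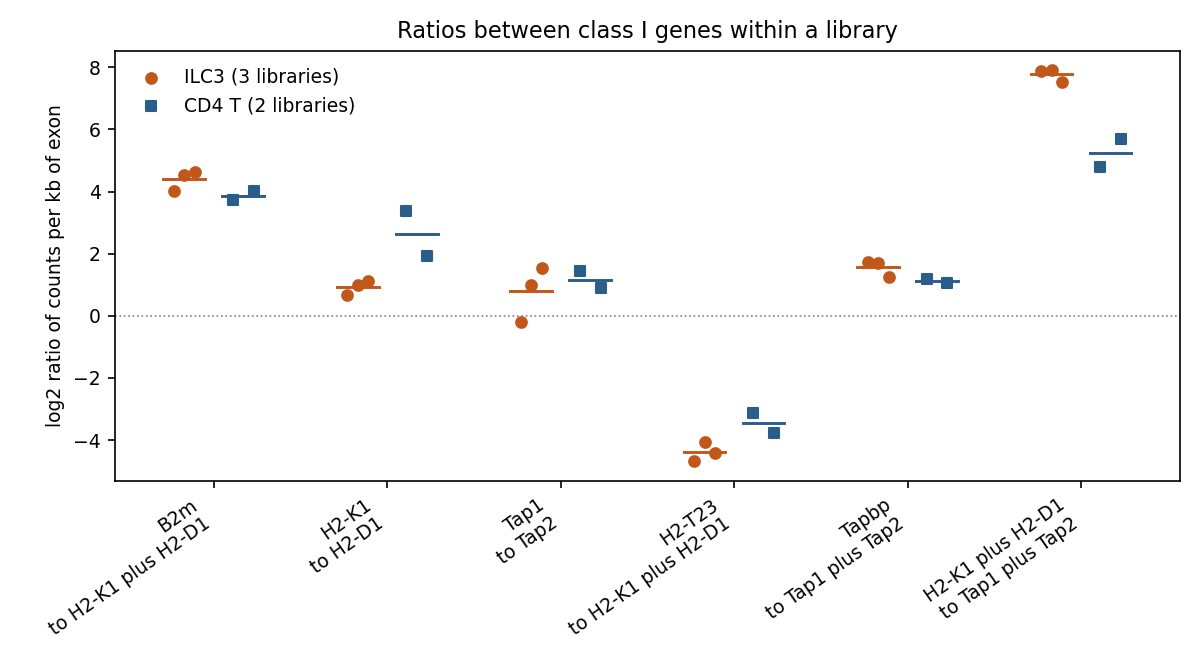
Log2 ratios of counts per kb of exon between class I genes in each library, with circles for the 3 ILC3 libraries, squares for the 2 CD4 T libraries and horizontal bars at the group means. The ratio of the heavy chains to the transporter subunits averaged 7.77 in ILC3 and 5.24 in CD4 T, while Tap1 to Tap2 overlapped.

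Another 39 genes of the pathway were read for context, and 35 of them were tested. With edgeR 2 were called higher in ILC3 and 3 lower, counts near the 6.46% and 7.21% of all genes tested. The median log2 fold change of the 35 was 0.13, beside -0.10 for all genes tested. These shares, and the DESeq2 and limma-voom counts over all genes given above, stand beside the counts of each list below. Counts at an unadjusted edgeR p under 0.05 have no such count over all genes, so they cannot be set against a background. Among the other class I and class I-like chains, edgeR called 1 of 11 tested higher and 1 lower. DESeq2, like an unadjusted edgeR p under 0.05, gave 2 higher and 2 lower, adding Mr1 and Fcgrt, and limma-voom 1 higher and 2 lower, adding Fcgrt. Mr1, which presents vitamin B metabolites, and Fcgrt, the neonatal Fc receptor chain, are named here after their values were seen. Mr1 was 5.38, 2.18 and 18.9 CPM in ILC3, against 0.515 and 0.596 CPM in CD4 T (edgeR adjusted p = 0.0706). Fcgrt was 0.108, 0 and 1.52 CPM in ILC3, against 28.5 and 9.42 CPM in CD4 T (edgeR adjusted p = 0.0702). Without ILC3 replicate 3, the highest for each of them in that group, Fcgrt was called lower (edgeR adjusted p = 0.029), and Mr1 was not called (0.208). With no filter on low counts edgeR called Mr1 (adjusted p = 0.0272) and Fcgrt (0.00543), and with library size alone Fcgrt (0.0449). H2-Q6, a Qa-2 heavy chain, was 81.3, 41.1 and 38.5 CPM in ILC3, against 4.88 and 7.58 CPM in CD4 T (edgeR log2 3.11, SE 0.51, adjusted p = 0.0144); the call was lost without CD4 T replicate 1 (edgeR adjusted p = 0.0729). Its close relative H2-Q7, named after its values were seen, was 222, 213 and 156 CPM in ILC3, against 109 and 201 CPM in CD4 T, and was not called (log2 0.35, edgeR adjusted p = 0.552). Hfe, a class I-like chain that regulates iron uptake and presents no peptide, fell to 2.99, 4.04 and 2.05 CPM in ILC3, against 33.9 and 23.2 CPM in CD4 T (edgeR log2 -3.24, SE 0.51, adjusted p = 0.0131), and lost its call without ILC3 replicate 1 (0.0526) or CD4 T replicate 1 (0.0656).

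Chaperones and editors of the loading complex gave 0 calls among 6 genes tested with edgeR, while at an unadjusted p under 0.05, with DESeq2 and with limma-voom 2 were higher and 0 lower. Pdia3, the disulfide isomerase bound to tapasin, was 698, 458 and 469 CPM in ILC3, against 113 and 244 CPM in CD4 T (log2 1.60, 95% interval 0.55 to 2.65, edgeR adjusted p = 0.0565). Pdia3 was called with edgeR without CD4 T replicate 2 (log2 2.27, adjusted p = 0.0177), with no filter on low counts (0.0143) and with receptor segment genes left out (0.0399). Calreticulin (Calr, named after its values were seen) was 252, 159 and 162 CPM in ILC3, against 19.9 and 81.3 CPM in CD4 T (log2 1.91, 95% interval 0.43 to 3.40, edgeR adjusted p = 0.0825). Its edgeR log2 value was 3.27 without CD4 T replicate 2, where it was called (adjusted p = 0.0111), and 1.24 without CD4 T replicate 1 (0.144). Calr was also called with no filter on low counts (edgeR adjusted p = 0.0132). These genes, which also serve general protein folding, were higher in each ILC3 library, opposite to Tapbp. Calnexin (Canx) was 531, 516 and 603 CPM in ILC3, against 597 and 308 CPM in CD4 T, and overlapped (edgeR adjusted p = 0.637).

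The immunoproteasome and its activator also gave 0 calls among 5 genes with edgeR and with limma-voom; at an unadjusted p under 0.05, and with DESeq2, 1 was lower, and that was Psmb9. The order along chromosome 17 is Psmb9, Tap1, Psmb8, Tap2, with 495 bases between Tap1 and Psmb8 and 2072 between Psmb8 and Tap2. Psmb9, which runs away from Tap1 on the minus strand and was named after its values were seen, was 80.2, 126 and 108 CPM in ILC3, against 164 and 235 CPM in CD4 T (log2 -0.93, edgeR adjusted p = 0.0933). Psmb8, between the transporter genes, was 667, 791 and 654 CPM in ILC3, against 394 and 695 CPM in CD4 T, and overlapped (log2 0.37, 95% interval -0.45 to 1.19, edgeR adjusted p = 0.503). Psme2, a subunit of the proteasome activator, had a log2 value of 0.31 (edgeR adjusted p = 0.53). With library size alone the signs of Canx, Psmb8, Psme2 and H2-Q7 turned.

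Of 9 factors that act at class I promoters or in their interferon response, 1 was called higher in ILC3. Rfxank, a subunit of the RFX complex, was 23.8, 22.2 and 20.5 CPM in ILC3, against 5.35 and 5.96 CPM in CD4 T (edgeR log2 1.97, SE 0.43, adjusted p = 0.0317). All 3 ILC3 libraries lay well above both CD4 T libraries. The call was lost when ILC3 replicate 1, 2 or 3 or CD4 T replicate 1 was left out (edgeR adjusted p from 0.0744 to 0.1) and with library size alone (0.102). The other 8 factors, which are Rfx5, Rfxap, Nfya, Nfyb, Nfyc, Creb1, Irf1 and Irf2, were not called with edgeR, DESeq2 or limma-voom, nor at an unadjusted edgeR p under 0.05.

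Of 4 genes for loading lipids on CD1d, 2 were lower in ILC3 and 0 higher, with the same counts from DESeq2, limma-voom and an unadjusted p under 0.05. Psap, the precursor of the saposins, was 5.41, 6.60 and 7.31 CPM in ILC3, against 80.9 and 45.6 CPM in CD4 T (edgeR log2 -3.30, SE 0.39, adjusted p = 0.00578). Gm2a, the GM2 activator, was 56.4, 48.3 and 46.6 CPM in ILC3, against 317 and 164 CPM in CD4 T (edgeR log2 -2.25, SE 0.35, adjusted p = 0.0122; 0.0547 without ILC3 replicate 2). Psap and Gm2a encode lysosomal proteins that macrophages also make in quantity, and the part of macrophage transcripts in their differences was not tested.

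**Figure D4:**
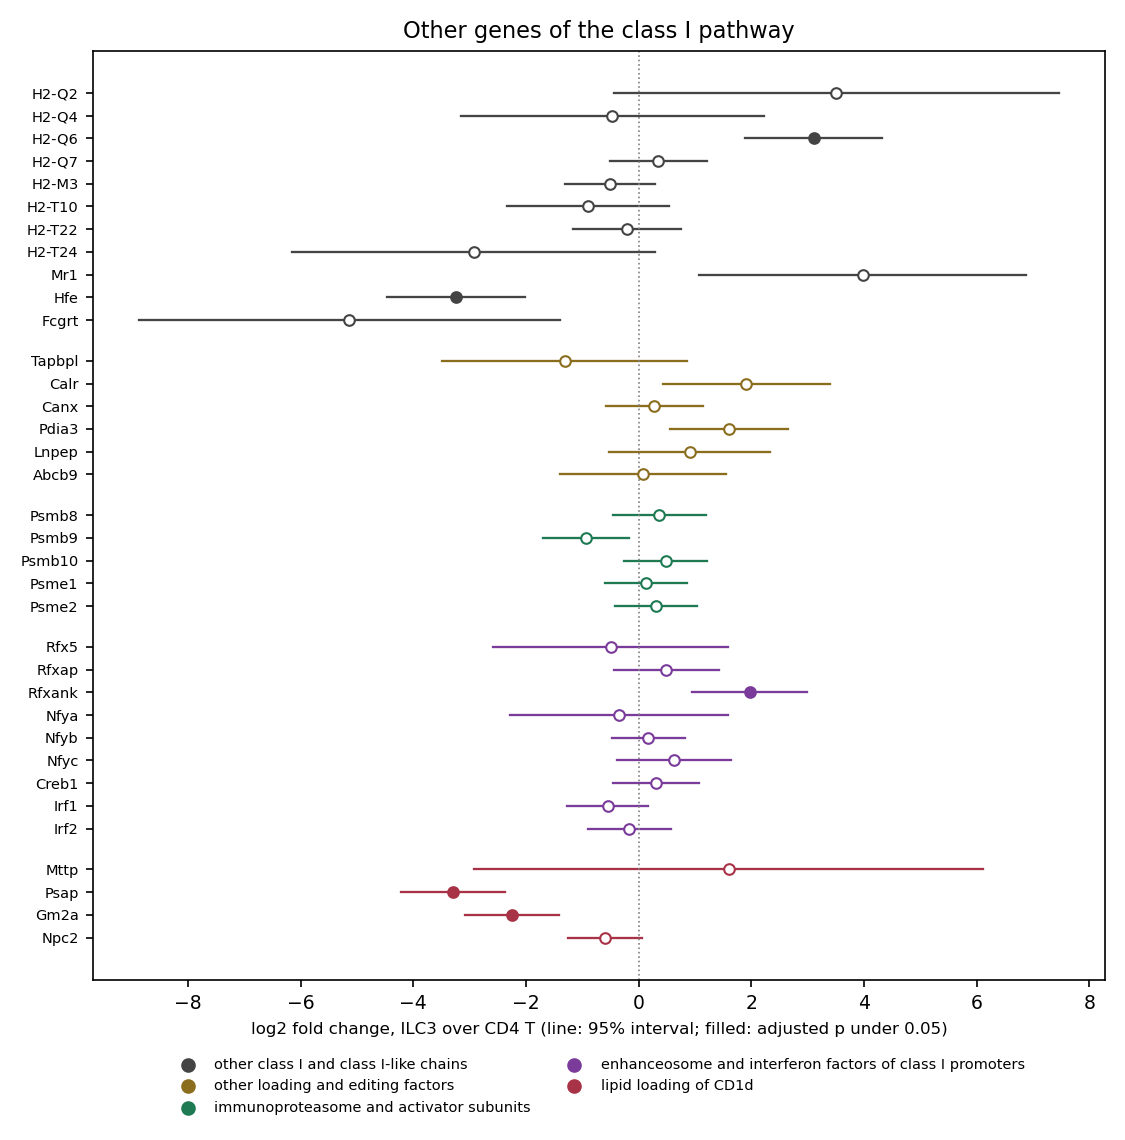
Log2 fold change of ILC3 over CD4 T for the 35 other pathway genes tested, coloured by list, with a line for the 95% interval and a filled point where the edgeR adjusted p was under 0.05. Filled points are H2-Q6 and Rfxank to the right and Hfe, Psap and Gm2a to the left.

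Lists of markers for other cell types differed in their direction between the groups. The libraries held 15123715 to 25956023 counts, of which antigen receptor segment genes took 6.55% to 29.8% in ILC3 and 10.2% to 17.0% in CD4 T. All 7 ILC3 markers were called higher in ILC3, and 4 of 7 T cell markers lower. The T cell markers summed to 302 to 783 CPM in ILC3, against 1247 and 3292 CPM in CD4 T. Of the 7, 5 did not overlap between the groups. Cd3e did (65.3, 69.9 and 20.6 CPM in ILC3, 54.9 and 201 in CD4 T), as did Cd3g (362, 470 and 161, against 280 and 1310). In the CD4 T libraries Cd4 (142 and 90.1 CPM) was below Cd8a (245 and 189) and Cd8b1 (336 and 433). These T cell genes are named after their values were seen. The 6 plasmacytoid dendritic cell markers summed to 168 to 216 CPM in ILC3, against 2082 to 2539 CPM in CD4 T, with Bst2 highest in ILC3 (121 to 175 CPM), and Siglech highest in CD4 T (745 and 814 CPM); 5 of the 6 were called lower. The 8 markers of conventional dendritic cells and macrophages summed to 167 to 207 CPM in ILC3, against 1532 to 2193 CPM in CD4 T, with 7 called lower and 1, Zbtb46, higher; Lyz2 was the highest in each group (99.7 to 140.4 CPM over the ILC3 libraries, against 659 and 1592 CPM in the CD4 T libraries). Cd8a and Cd8b1 summed to 0 to 1.23 CPM in ILC3, against 582 to 622 CPM in CD4 T, with no count of either gene in ILC3 replicate 2. The 7 B and plasma cell markers summed to 18950 to 101913 CPM in ILC3, against 21795 to 35159 CPM in CD4 T, nearly all of it Jchain. With edgeR 0 of the 7 were called; 2, Xbp1 and Cd79a, were higher at an unadjusted p under 0.05 and with DESeq2, and Xbp1 with limma-voom.

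CD4 T replicate 2 also held epithelial transcripts, with 21982 CPM of Defa24, a Paneth cell defensin, beside 55.4 CPM in CD4 T replicate 1 and 1.79 to 21.0 CPM in ILC3. The 6 epithelial markers summed to 13.0 to 36.4 CPM in ILC3, against 91.0 and 23909 CPM in CD4 T, and Krt8 had no count in any ILC3 library or in CD4 T replicate 1. The 4 stromal and endothelial markers summed to 35.2 to 45.6 CPM in ILC3, against 19.9 to 23.1 CPM in CD4 T. Of the epithelial markers 2 of 4 tested were called lower, and of the stromal ones 1 of 2 higher. Within CD4 T, Tap1, Tapbp, Psap and Gm2a were higher in replicate 1, H2-D1 and B2m in replicate 2. The list of conventional dendritic cells and macrophages, whose genes are named here after their values were seen, was split. Csf1r (222 and 102 CPM), Itgax (134 and 63.4), Adgre1 (128 and 59.0), Flt3, C1qa and Zbtb46 were higher in replicate 1. Lyz2 and Cd14 (172 and 201 CPM) were higher in replicate 2, and Lyz2 made the list sum larger there. The part of these other transcripts in the differences of Tap1, Tap2, Tapbp and Nlrc5 was not tested, and CD4 T stands throughout for the label of these libraries.

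**Figure D5:**
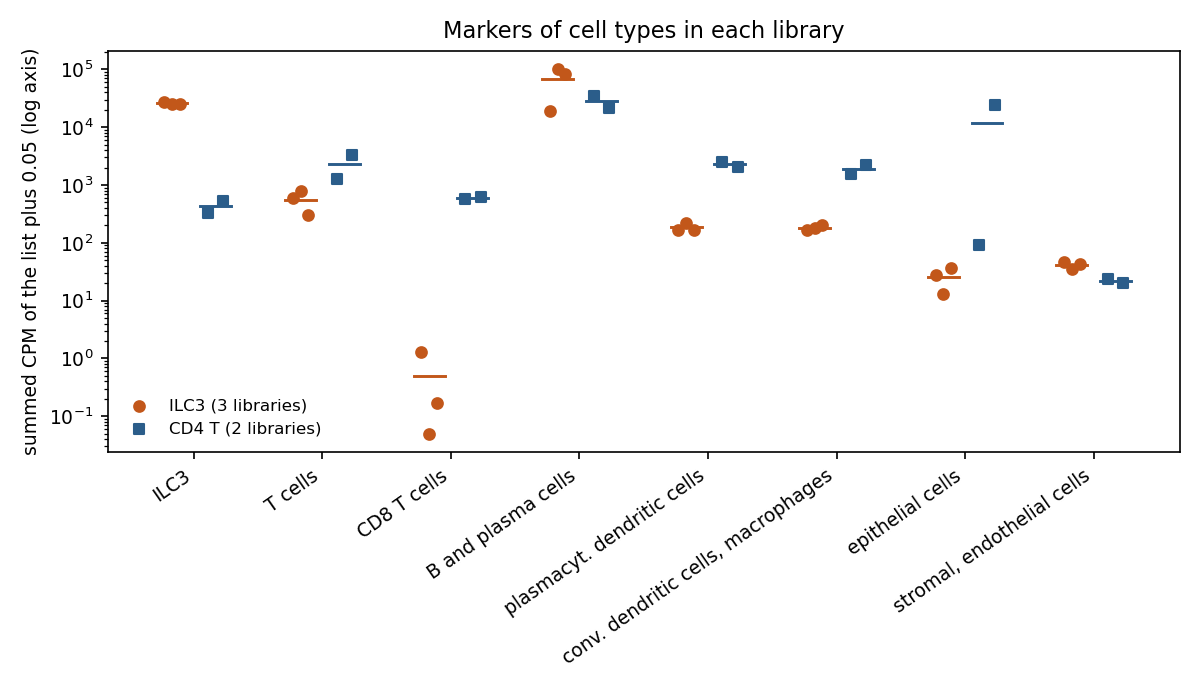
Summed CPM of each marker list plus 0.05 (log axis) in each library, with circles for the 3 ILC3 libraries, squares for the 2 CD4 T libraries and horizontal bars at the group means. Plasmacytoid dendritic cell markers summed to no more than 216 CPM in any ILC3 library and no less than 2082 CPM in any CD4 T library, and epithelial markers reached 23909 CPM in CD4 T replicate 2.

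Among 11506 other genes tested, those whose log2 CPM followed B2m most closely over the 5 libraries, by root mean square difference after centring each gene on its own mean, were Sra1 (0.0357), Ccdc82 (0.0585), Higd2a (0.0688), Cuta (0.069) and the proteasome subunit gene Psma2 (0.07). Closest to Nlrc5 were Ikzf1, which encodes the lymphoid factor Ikaros (0.0575), Peli2 (0.165), Mideas (0.169), Itga4 (0.176) and Kmt5a (0.177). Ikzf1 was 23.7, 20.8 and 41.0 CPM in ILC3, against 127 and 108 CPM in CD4 T. These distances describe 5 libraries.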

How the data were processed

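Total RNA of sorted ILC3 (3 libraries) and CD4 T cells (2 libraries) was made into cDNA with a Clontech SMARTer Ultra Low Input kit, per the labels' protocols. The authors deposited whole-number read counts per NCBI gene, with no normalization; CASAVA 1.8.2, STAR 2.3.0 and build mm10 are named in the submitters' processing notes, and no counting tool, annotation or strand setting is given in the sources used here. RefSeq of GRCm38.p6 gave symbols for 25275 of the 27179 genes. Counts were analysed with edgeR 4.0.16 in R 4.3.3: filterByExpr by group, TMM factors and the quasi-likelihood F test without covariates, with Benjamini-Hochberg adjustment over the 12747 genes tested. SE is the size of the log2 fold change divided by the square root of F, and 95% intervals use the moderated degrees of freedom. The fit was checked on simulated data. Ratios were tested by exact permutation with scipy 1.17.1.

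Depth was 15123715 to 25956023 counts; 1 count is 0.0361 to 0.0641 CPM. The cells came from 3 mice that the labels do not tie to libraries, so p-values reflect only how far these libraries differ, and that spread may be technical. No pair agreed within sampling noise (chi-square per degree of freedom of 234 to 1023). Alternatives were other library factors, no receptor segment genes, other filters, DESeq2 1.42.0, limma-voom (limma 3.58.1), a replicate block and leaving out each library.

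The members and lists were chosen with earlier results of these data known. Genes named are the members, up to 4 called genes with the smallest p from each other pathway list (or the 2 most abundant where none is called), the most abundant marker of each cell type list in each group (given where it bears on a result; the others as list sums), the 5 genes closest to B2m and to Nlrc5, and those marked as named after their values were seen. A gene of these lists is not reported here and is in none of their counts.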

Additional observations from a re-analysis of the deposited data

How the results depend on the processing

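Tap1 was called lower in each of the 14 alternatives, and H2-K1 was called in none. No member changed sign under another scaling or test; Cd1d1 alone did so with a library left out (0.22 without CD4 T replicate 2, -0.83 without CD4 T replicate 1). Calls of all genes moved most, from 824 higher and 919 lower to 384 and 1502 with library size alone (median log2 fold change of all genes -0.60 in place of -0.10, and 20.4% of calls higher in place of 47.3%), 1914 and 1858 with DESeq2, and 1317 and 1402 with limma-voom; without a filter 1250 were higher. Among members, 2 were called higher with DESeq2 and 1 with limma-voom. With library size alone 5 members were lower, H2-T23 being added (log2 -1.32, edgeR adjusted p = 0.0475). Other pathway genes called higher numbered 1 with library size alone, 5 without a filter, 5 with DESeq2 and 4 with limma-voom. Those called lower numbered 5 with library size alone and 5 with DESeq2. With 1 library left out, 269 to 1712 genes were higher and 306 to 960 lower, 0 to 2 members higher and 1 to 3 lower, and 0 to 4 other pathway genes higher and 2 to 4 lower. The log2 ratio of Tap1 to Tap2 then ran from -0.77 to 0.10. Signs reversed with library size alone for Canx (-0.22), Psmb8 (-0.14), Psme2 (-0.21) and H2-Q7 (-0.13), for Canx without CD4 T replicate 2 (-0.11, beside 0.84 without CD4 T replicate 1) and for H2-Q7 without CD4 T replicate 1 (-0.020, beside 0.87 without CD4 T replicate 2). The cause was not tested. Genes near 1 CPM are limited by depth; no member is.

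Replicate numbers are shared between the groups, but no label ties them to a mouse. Deviations from the group means correlated across genes at -0.02 between the libraries numbered 1 and at -0.03 between those numbered 2. With a replicate block, which leaves 1 residual degree of freedom, 215 genes were higher and 305 lower, 0 members were higher and 1 lower (Tap1), and 1 other pathway gene was higher and 2 lower.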
